A study of Sus scrofa with 12 samples.

Results

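The respiratory chain subunit genes described here are nuclear genes named after subunits of the mitochondrial complexes I to V. They were chosen by name: every annotated gene of the deposited table whose symbol is NDUF followed by A, B, C, S or V and a number, SDHA to SDHD, any UQCR symbol, COX followed by a subunit number and the letter A, B or C, or any ATP5 symbol. This rule matched 92 rows and 74 symbols among the 30012 rows of the table, and for the 16 symbols with several rows the row with the highest mean value was kept. Complex I had 35 members, complex II 4, complex III 6, complex IV 13 and complex V 16. The rule misses some nuclear subunits, such as CYC1 and COX4I1, and takes in ATP5S and ATP5SL, which are not structural subunits. The rule itself uses no difference between groups.

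Complexes I and II pass electrons from NADH and from succinate to ubiquinone, complex III passes them on to cytochrome c, and complex IV passes them to oxygen. Complexes I, III and IV pump protons across the inner mitochondrial membrane as they do so, and complex V, the ATP synthase, uses the returning protons to make ATP. Pluripotent stem cells are widely described as drawing strongly on glycolysis while keeping a working respiratory chain.

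RNA was sequenced from 12 pig libraries, 3 in each of 4 groups. The somatic cell control was fetal fibroblasts from a fetus at dpc 30, at passage 6. The embryonic stem cells (ESCs) were the lines Parthenogenetic ESC-3 and Parthenogenetic ESC-7, from eggs that developed without fertilisation, and IVF-derived ESC-11, from an embryo fertilised in vitro. They are called ESC3, ESC7 and ESC11 below. All ESCs grew on feeder cells in medium that held 20 ng/mL FGF2, 5 ng/mL ActA, 1.5 µM CH and 2.5 µM IWR-1, and were enriched for SSEA1-positive cells on magnetic columns before RNA was extracted. The IVF group is 1 line, so derivation and line cannot be told apart, and whether the 3 libraries of a group come from separate cultures is not given in the labels. The p-values therefore measure the spread between these libraries, which may be technical.

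The values are the authors' FPKM, in which fragments on a gene are divided by transcript length and library size. The table gives no counts, so library depth is unknown and counting error has no interval here. The labelled cell types were checked with marker genes: the summed FPKM of 9 fibroblast markers was 16010 to 16190 in the fibroblasts and 65.0 to 105.4 in the ESC libraries, and that of 7 pluripotency markers was 1.39 to 1.87 and 2482 to 2643. Of the fibroblast markers, TWIST1, POSTN, LUM and COL3A1 reached at most 0.581 FPKM in any ESC library. The 18278 rows that reached 1 FPKM in 3 or more libraries were tested. Differences are on the scale of log2(FPKM + 1), which understates the change of low genes. A gene was called, and is said to rise or fall, at a Benjamini-Hochberg adjusted p under 0.05 in limma together with a log2 difference of 1 or more in size.

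Of the 74 members 71 were tested. The other 3 were too low: COX8C, the testis form of a complex IV subunit, and ATP5J2, subunit f of the ATP synthase, were listed at 0 in every library. ATP5G2, a gene for the c subunit of the ATP synthase rotor, was listed at 0 in 10 of 12 libraries and reached at most 0.177 FPKM. ATP5G2 and ATP5J2 each occupy a second row with nearly the same length, and how reads that fit both rows were counted is not given, so a level of 0 in this table does not show that the gene is silent. NDUFC2, an accessory subunit of complex I, passed the filter through ESC libraries alone, and the other 70 members had an FPKM of at least 1 in all 3 fibroblast libraries. Subunits encoded by mitochondrial DNA were not analysed here.

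The members differed widely in level, and their order was much the same in all groups. In the ESCs the highest mean was that of NDUFS4, an accessory subunit of complex I, at 1276 ± 386 FPKM (SD, n = 9). That rank rested on a single ESC11 library at 2265 FPKM, as the other 8 ESC libraries averaged 1153 ± 116 FPKM (SD, n = 8), and on the row kept for this gene. ATP5A1, the alpha subunit of the ATP synthase catalytic head and the highest without that library, had 1237 ± 30.7 FPKM (SD, n = 9) and its beta partner ATP5B 1001 ± 47.6 FPKM (SD, n = 9). The lowest tested member was ATP5S at 1.89 ± 0.234 FPKM (SD, n = 9). Across the 71 tested members, Spearman's rho between the fibroblast mean and the ESC mean was 0.93, a description across genes that share libraries and row lengths. Between the log2 difference of ESCs and fibroblasts and the fibroblast level, rho was 0.13 over the same genes. The fibroblast values enter both sides of this rho, and the added 1 shrinks the differences of low genes. It therefore does not show whether the difference depends on the level.

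**Figure D1:**
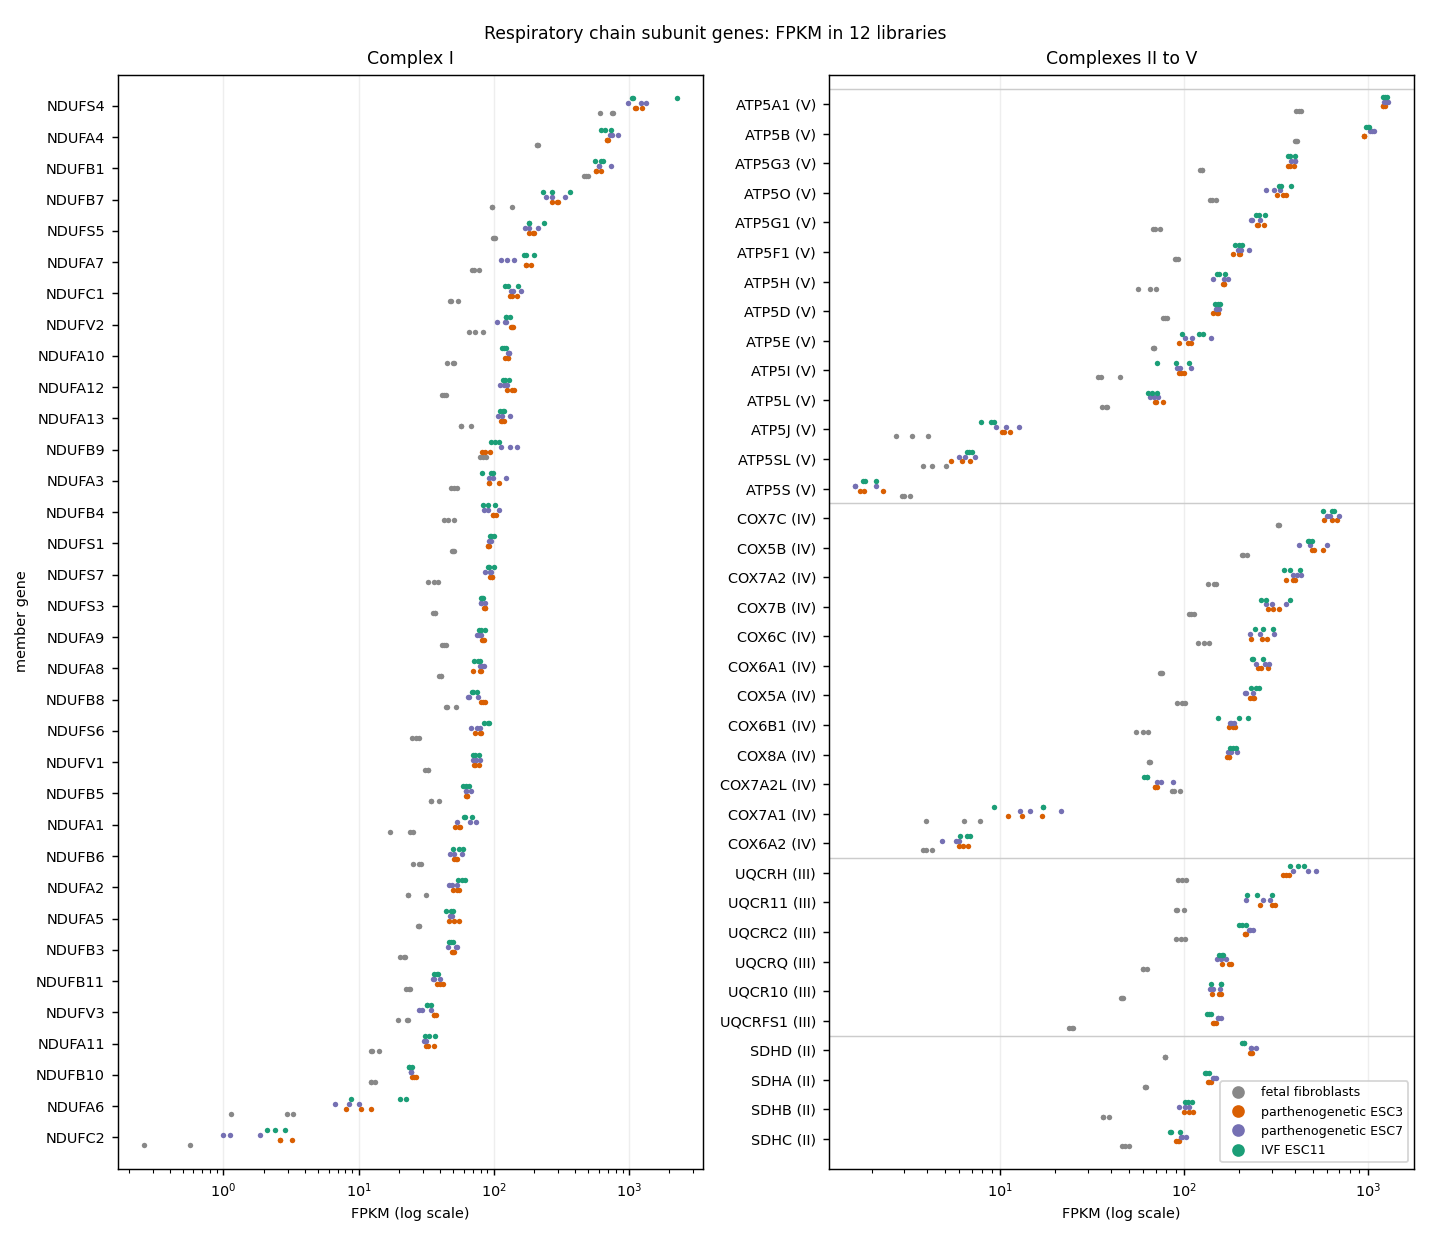
FPKM of 70 of the 71 tested members in each of the 12 libraries, on a log axis, with complex I on the left and complexes II to V on the right; each point is 1 library and a value of 0 is not drawn. Nearly all members sit further right in the ESC libraries than in the fibroblasts, while ATP5S and COX7A2L sit further left, and NDUFS4 has a single ESC11 library at 2265 FPKM.

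Subunit mRNA was higher in the ESCs than in fibroblasts across all 5 complexes. Against fibroblasts, the mean of the 3 ESC lines was called higher for 44 of 71 members, or 62.0%, and lower for 0. Over all tested rows 28.1% were called higher and 14.9% lower. The fold minimum set most of this count, since by adjusted p alone 69 members were higher and 2 were lower. Without it 58.3% and 29.4% of all rows passed. The median log2 difference of the members was 1.17, against 0.43 for the 12838 tested rows with an Ensembl identifier. In 68 members every ESC library lay above every fibroblast library and in 1 member every one lay below, where 50.2% and 24.9% of all rows did so.

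The reference level affects these counts. Typical genes were also higher in the ESC libraries in this table. Centring each library on its Ensembl median left the Ensembl median difference at 0.18, so part of this shift remained. After centring, 31 members were called higher and 0 lower, against 20.6% and 18.3% of all rows. After scaling by median ratios, which brought the Ensembl median difference down to 0.04, 20 members were called higher and 0 lower, against 19.2% and 20.5% of all rows. These 20 members were NDUFA4, NDUFA6, NDUFA12, NDUFC1, NDUFC2 and NDUFS6 of complex I, SDHB and SDHD of complex II, UQCR10, UQCR11, UQCRFS1 and UQCRH of complex III, COX6A1, COX6B1, COX7A2, COX7B and COX8A of complex IV, and ATP5A1, ATP5G1 and ATP5G3 of complex V. Of these, NDUFC2 was tested through ESC libraries alone, so its call is not read as support. Because the reference level matters, the complexes are compared below relative to the Ensembl median of each comparison.

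Relative to that median, complex III stood highest and complex I lowest when the median of the members' differences was taken. The median member of complex III was 1.16 above it on the log2 scale, those of complexes II, IV and V were 0.87, 0.82 and 0.81 above it, and that of complex I was 0.51 above it. The members called higher numbered 17 of 35 in complex I, 3 of 4 in complex II, 6 of 6 in complex III, 9 of 12 in complex IV and 9 of 14 in complex V. After centring they numbered 11, 2, 5, 6 and 7. No test of the difference between complexes was run, since the members of a complex are not replicates.

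**Figure D2:**
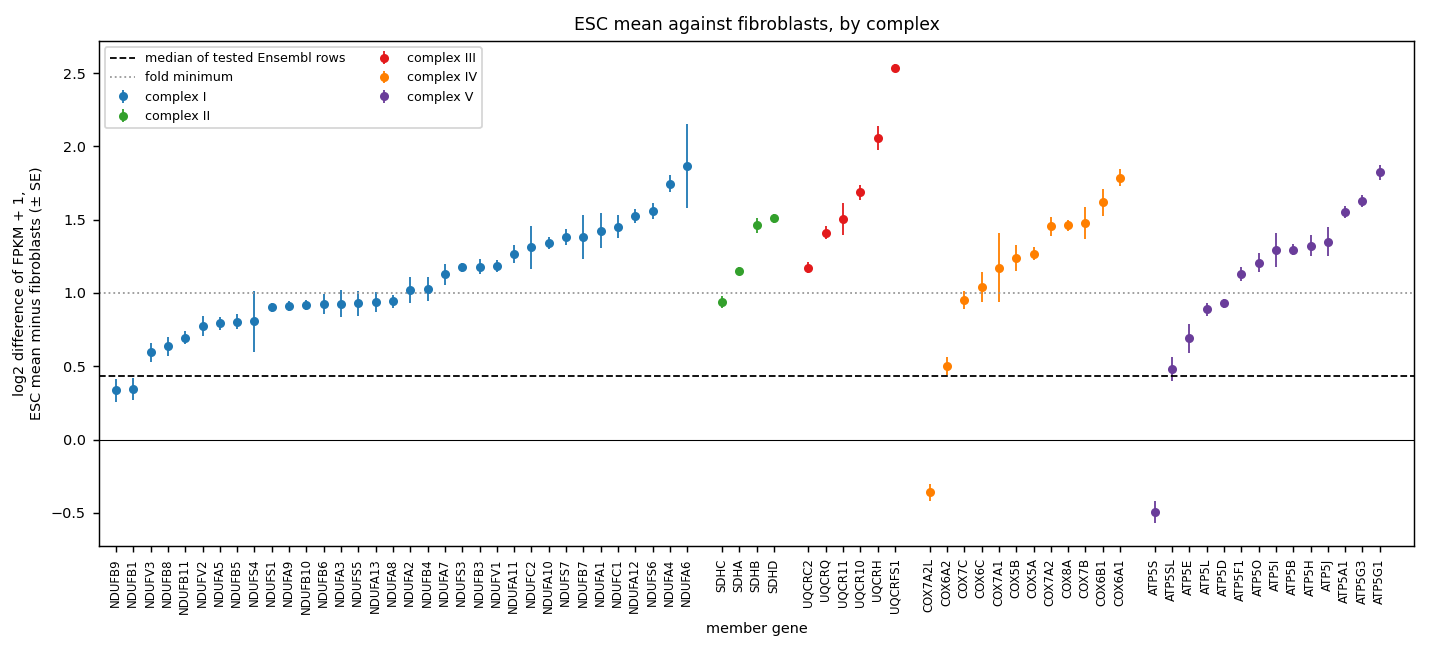
Log2 difference of FPKM + 1 between the mean of the 3 ESC lines and fibroblasts for 70 of the 71 tested members, grouped by complex and in order of size; bars are the standard error from limma, the dashed line is the median of tested Ensembl rows (0.43) and the dotted line the fold minimum of 1. All 6 complex III members lie above the dotted line, UQCRFS1 is the highest point at 2.54, and COX7A2L and ATP5S lie below 0.

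In complex I, the entry point for electrons from NADH, 17 of 35 members rose, where 28.1% of all rows did. Of the core subunits, which carry the flavin, the iron-sulphur clusters or the ubiquinone site, NDUFS7, NDUFV1 and NDUFS3 rose, with log2 differences of 1.38 ± 0.05, 1.18 ± 0.04 and 1.17 ± 0.03 (SE). NDUFS1 and NDUFV2 had differences of 0.90 ± 0.03 and 0.78 ± 0.07 (SE), under the fold minimum. Of the 29 accessory subunits, which surround that core, 14 rose. After centring 1 of 6 core and 10 of 29 accessory subunits were called higher, against 20.6% of all rows. After scaling by median ratios 6 of the 35 members were, a share near the 19.2% of all rows, and no core subunit was among them. The counts of 17, 14 and 6 include NDUFC2, which was tested through ESC libraries alone.

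NDUFA4, which was named as a complex I subunit and is now usually counted with complex IV, had 210, 215 and 211 FPKM in the fibroblasts. In the ESC libraries it ranged from 626 to 836 FPKM with a median of 707. The groups did not overlap, and the log2 difference was 1.75 ± 0.06 (SE; adjusted p = 2.5e-10). NDUFS6, a small accessory subunit that binds zinc, had 26.8, 27.9 and 25.1 FPKM in the fibroblasts and 68.0 to 92.6 FPKM in the ESCs, with a median of 79.9. Its log2 difference was 1.56 ± 0.06 (SE; adjusted p = 5.0e-10). NDUFA12, an accessory subunit of the NADH-oxidising arm, rose by a log2 difference of 1.53 ± 0.05 (SE), from 42.8 ± 1.52 FPKM (SD, n = 3) to 125 ± 9.04 FPKM (SD, n = 9).

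The smallest complex I differences were those of NDUFB9 and NDUFB1, accessory subunits of the membrane arm. NDUFB9 had 87.4, 79.7 and 83.3 FPKM in the fibroblasts and 82.5 to 149 FPKM in the ESC libraries, with a median of 102. Its libraries overlapped between the cell types, and the log2 difference was 0.34 ± 0.08 (SE). NDUFB1 had 501, 481 and 468 FPKM in the fibroblasts and 564 to 745 FPKM in the ESCs, and also differed by 0.34 ± 0.07 (SE). Both lay under the Ensembl median of 0.43, and after scaling by median ratios their differences were -0.12 and -0.11.

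NDUFA6, NDUFS4 and NDUFC2 need care because of the row they stand on. NDUFA6, an accessory subunit, had the largest difference of the complex, 1.87 ± 0.29 (SE; adjusted p = 0.00011). Its kept row is at chromosome 5, 3855965 to 3995674 on the minus strand of Sscrofa10.2, a span of 139710 bp. It had 3.26, 2.97 and 1.14 FPKM in the fibroblasts and 6.73 to 22.3 FPKM in the ESCs. The reference name table pairs NDUFA6 with another row, at 3786583 to 3792164 on the same chromosome and strand, with 1.06 FPKM on average in fibroblasts, 6.03 in ESC3, 5.16 in ESC7 and 1.49 in ESC11. On that row the difference between ESCs and fibroblasts was 1.21 ± 0.06 (SE; adjusted p = 1.3e-08).

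The kept row of NDUFS4 is at chromosome 16, 34854096 to 34902399, minus strand. It had 754, 617 and 760 FPKM in the fibroblasts and 994 to 2265 FPKM in the ESCs, with a median of 1136. The highest value was a single ESC11 library, as the other 2 had 1079 and 1066 FPKM. The log2 difference was 0.81 ± 0.21 (SE; adjusted p = 0.0043). The row that the reference table pairs with NDUFS4 lies at 34962719 to 34992624 on the plus strand, with a mean of 148 FPKM in the fibroblasts and 286, 299 and 286 FPKM in ESC3, ESC7 and ESC11. There the difference was 0.97 ± 0.06 (SE; adjusted p = 3.4e-08), also under the fold minimum. For NDUFC2, 3 fibroblast libraries at 0, 0.568 and 0.260 FPKM stood against ESC libraries at 1.00 to 3.20 FPKM, and because these libraries decided that it was tested, its call is not read as support. Leaving it out, 43 of 70 members were called higher. Counts out of 71, 35 or 29 members include NDUFC2 among those tested.

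Complex II, which is also the succinate dehydrogenase of the citric acid cycle, has 4 subunits, all of them nuclear and all in the table. SDHD, a membrane anchor of the complex, had 78.4, 78.8 and 79.0 FPKM in the fibroblasts. In the ESC libraries it ranged from 207 to 246 FPKM with a median of 230. The groups were far apart relative to their spread, and the log2 difference was 1.51 ± 0.03 (SE; adjusted p = 3.0e-12). SDHB, the iron-sulphur subunit, rose by 1.46 ± 0.05 (SE), from 37.2 ± 1.68 FPKM (SD, n = 3) to 104 ± 5.59 FPKM (SD, n = 9). SDHA, the flavoprotein that oxidises succinate, rose by 1.15 ± 0.03 (SE). SDHC, the other membrane anchor, had a difference of 0.94 ± 0.04 (SE), under the fold minimum.

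In complex III, the cytochrome bc1 complex, all 6 members rose. UQCRFS1, the Rieske iron-sulphur protein that takes the electron from ubiquinol, had the largest difference of all members. Its fibroblast libraries had 23.6, 24.5 and 24.8 FPKM. The ESC3 libraries held 144, 146 and 149 FPKM, those of ESC7 159, 154 and 153, and those of ESC11 133, 140 and 136. No ESC library came near the fibroblast values, and the log2 difference was 2.54 ± 0.03 (SE; adjusted p = 5.2e-14). It was 2.09 after scaling by median ratios, the lowest value under any alternative run. UQCRFS1 lies on chromosome 6 at 34521339 to 34530744, minus strand.

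UQCRH, the hinge protein that helps cytochrome c dock, had 102, 92.8 and 97.5 FPKM in the fibroblasts and 346 to 520 FPKM in the ESCs, with a median of 390. Its log2 difference was 2.06 ± 0.08 (SE; adjusted p = 1.2e-09). The small subunits UQCR10, UQCR11 and UQCRQ rose by 1.69 ± 0.05, 1.50 ± 0.11 and 1.41 ± 0.05 (SE). UQCRC2, a core protein of the matrix side, rose by 1.17 ± 0.04 (SE), the smallest difference of the complex. It stands on a row of the minus strand that overlaps a second UQCRC2 row on the plus strand with like values, 97.6 FPKM in the fibroblasts and 181 to 217 FPKM as line means, and since the strand setting of the counting is not given, the reads of these rows cannot be told apart.

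Complex IV, cytochrome c oxidase, has subunits with separate forms for muscle and for other tissues. COX6A1, the general form of a nuclear subunit, had 74.2, 75.7 and 74.7 FPKM in the fibroblasts. It ranged from 235 to 290 FPKM in the ESCs with a median of 263. The log2 difference, 1.79 ± 0.06 (SE; adjusted p = 2.8e-10), was the largest of the complex. COX6A2, its heart and skeletal muscle form, had 4.24, 3.83 and 3.97 FPKM in the fibroblasts and 4.81 to 6.85 FPKM in the ESCs, a difference of 0.50 ± 0.06 (SE). The COX6A2 row spans 46235 bp, against 2648 bp for COX6A1, and whether all its reads belong to this gene was not tested.

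COX7A2 and COX7A1 both rose, while the related COX7A2L was lower in the ESC mean. COX7A2, the general form, had 143 ± 7.23 FPKM (SD, n = 3) in the fibroblasts and 394 ± 29.1 FPKM (SD, n = 9) in the ESCs and rose by 1.46 ± 0.06 (SE). COX7A1, the heart and muscle form, had 6.36, 3.96 and 7.74 FPKM in the fibroblasts and 9.29 to 21.4 FPKM in the ESCs, and rose by 1.17 ± 0.24 (SE; adjusted p = 0.00079). COX7A2L, a related protein known for joining complexes III and IV into supercomplexes, had 95.5, 88.1 and 85.8 FPKM in the fibroblasts and 60.9 to 87.2 FPKM in the ESCs. Its libraries overlapped, and the difference was -0.36 ± 0.06 (SE; adjusted p = 0.00011), negative under each scaling that was run. Of 8 muscle markers in the table, MYH7, TNNT2, MYOD1, MYOG and CKM were too low to test. DES stood at 170 to 176 FPKM in the fibroblasts and 1.02 to 2.12 in the ESCs, TNNI3 at 0.124 to 0.260 and 13.6 to 19.8, and ACTA1 at 1.52 to 1.80 and 3.13 to 9.07. The summed level of the 8 markers was 171 to 178 FPKM and 21.2 to 30.1 FPKM, and its part in the muscle forms' values was not tested.

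Among the remaining complex IV members, COX6B1, COX7B and COX8A rose by 1.62 ± 0.09, 1.48 ± 0.11 and 1.46 ± 0.04 (SE). COX5A and COX5B, nuclear subunits on the matrix side, rose by 1.27 ± 0.04 and 1.24 ± 0.09 (SE). COX7C, at 325 ± 2.14 FPKM (SD, n = 3) in fibroblasts and 631 ± 42.4 FPKM (SD, n = 9) in ESCs the most abundant member of the complex, had a difference of 0.95 ± 0.06 (SE), just under the fold minimum. The testis forms COX6B2 and COX7B2 were not analysed here.

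In complex V 9 of 14 tested members rose. After scaling by median ratios ATP5A1, ATP5G1 and ATP5G3 alone were called, 3 of 14, a share near the 19.2% of all rows. ATP5A1, on chromosome 1 at 105936408 to 105955798 on the plus strand, had 421, 409 and 433 FPKM in the fibroblasts. It had 1240, 1210 and 1203 FPKM in the ESC3 libraries, 1224, 1284 and 1262 in those of ESC7, and 1277, 1204 and 1234 in those of ESC11. Fibroblasts and ESCs did not overlap, while the ESC lines overlapped each other, and the log2 difference was 1.55 ± 0.04 (SE; adjusted p = 6.6e-11). ATP5B rose by 1.30 ± 0.04 (SE). ATP5D and ATP5E had differences of 0.93 ± 0.03 and 0.69 ± 0.10 (SE), under the fold minimum.

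Subunit c, of which the rotor ring is built, is encoded by the genes ATP5G1, ATP5G2 and ATP5G3, whose mature proteins are the same. ATP5G1 had 69.7, 74.4 and 68.2 FPKM in the fibroblasts and 232 to 277 FPKM in the ESCs, with a median of 254, and rose by 1.82 ± 0.05 (SE; adjusted p = 6.1e-11). ATP5G3 had 122, 125 and 125 FPKM in the fibroblasts and 366 to 403 FPKM in the ESCs, with a median of 383, and rose by 1.63 ± 0.04 (SE; adjusted p = 2.0e-11). These were the largest differences of complex V, and ATP5G3 had the higher FPKM of the pair in all 12 libraries. All 4 members of the peripheral stalk, which holds the head still against the turning rotor, rose: ATP5J by 1.35 ± 0.10, ATP5H by 1.32 ± 0.07, ATP5O by 1.21 ± 0.06 and ATP5F1 by 1.13 ± 0.05 (SE). ATP5J stood far below its partners, at 10.1 ± 1.40 FPKM (SD, n = 9) in the ESCs on a short unplaced scaffold, and has a second row.

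ATP5I and ATP5L, small membrane subunits linked to the pairing of ATP synthases, had differences of 1.29 ± 0.12 and 0.89 ± 0.05 (SE), of which the first passed. The members with the lowest differences in complex V, ATP5S and ATP5SL, carry an ATP5 name without being structural subunits. ATP5S, known as coupling factor B, had 3.23, 2.92 and 3.00 FPKM in the fibroblasts and 1.63 to 2.30 FPKM in the ESCs, with a median of 1.82. It was the single member with every ESC library below every fibroblast library, with a difference of -0.49 ± 0.07 (SE; adjusted p = 9.6e-05) that was negative under each scaling run. ATP5SL, now known as an assembly factor of complex I, had a difference of 0.48 ± 0.08 (SE). Leaving out ATP5S, ATP5SL and COX7A2L and counting NDUFA4 with complex IV raised the median of complex IV to 0.93 above the Ensembl median. That is past the 0.87 of complex II. This choice also changes the members of complexes I and V, whose medians under it are not given.

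Each ESC line showed the increase when set alone against the fibroblasts. ESC3 and ESC7 had 44 members called higher each and ESC11 had 43, with 0 lower in each line, where 28.6%, 29.2% and 27.4% of all rows were called higher and 15.5%, 14.3% and 15.5% lower. By adjusted p alone 68, 69 and 69 members were higher in ESC3, ESC7 and ESC11, against 56.0%, 57.4% and 55.2% of all rows, and 2 were lower in each line, against 28.9%, 27.5% and 29.2%. After scaling by median ratios 19, 17 and 18 members were called higher, against 19.5%, 19.9% and 19.2% of all rows. These comparisons share the same 3 fibroblast libraries, so they are not independent of each other. UQCRFS1 differed by 2.54, 2.63 and 2.44 in ESC3, ESC7 and ESC11, and ATP5A1 by 1.53, 1.58 and 1.55. In all 3 lines 40 members were called, and 47 in at least 1. The matching shares of all rows were not counted, so these joint counts are not read as a result about the members.

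The level of each complex in single libraries showed the same order in all 4 groups. Relative to the Ensembl median of the library, the median complex I member stood at 1.92 ± 0.02 (SD, n = 3) on the log2 scale in the fibroblasts and at 2.70, 2.61 and 2.71 in ESC3, ESC7 and ESC11. Complex III stood at 2.74 ± 0.01 (SD, n = 3) in the fibroblasts and at 3.85, 3.81 and 3.79 in the same lines. Complex IV was the highest of the complexes in every group, at 3.06 ± 0.06 (SD, n = 3) in the fibroblasts and 4.19, 4.11 and 4.22 in ESC3, ESC7 and ESC11. By these median levels complex IV rose about as much as complex III. The first place of complex III among the complexes therefore rests on taking the median of the members' differences. In FPKM, the median member of all complexes was 53.7 ± 0.76 (SD, n = 3) in the fibroblasts and 125 ± 2.46, 121 ± 8.11 and 120 ± 3.76 (SD, n = 3 each) in ESC3, ESC7 and ESC11, while the median Ensembl row went from 10.3 to 12.3, 12.7 and 12.2. In bulk RNA a smaller share of cells with a transcript and less transcript per cell cannot be told apart.

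**Figure D3:**
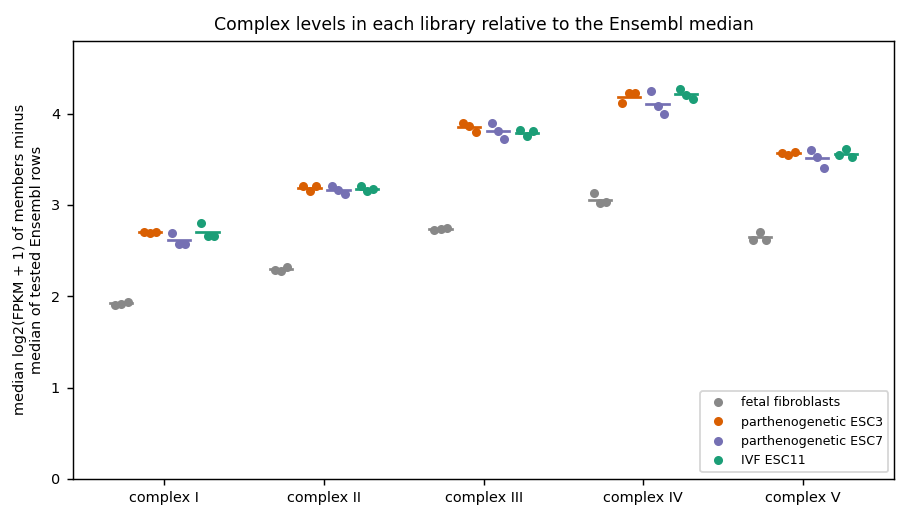
Median log2(FPKM + 1) of the tested members of each complex minus the median of tested Ensembl rows, in each library; points are libraries and short lines the group means of 3. For each complex the 9 ESC libraries lie above the 3 fibroblast libraries, and the 3 ESC lines lie close together.

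Between the ESC lines, the members differed little. The question set by the design is whether parthenogenetic lines, which have no paternal genome, differ from an IVF line. At the call threshold 0 members differed between the mean of the parthenogenetic lines and ESC11, where 2.2% of all rows did. Likewise 0 members were called for ESC3 against ESC11, ESC7 against ESC11 and ESC7 against ESC3, where 2.48%, 2.94% and 3.38% of all rows were called. At an unadjusted p under 0.05 in limma, 7 members were higher and 4 lower in the parthenogenetic mean than in ESC11, 7 and 3 in ESC3 than in ESC11, 9 and 8 in ESC7 than in ESC11, and 5 and 9 in ESC7 than in ESC3. The share of all rows at this unadjusted threshold was not counted. These unadjusted counts are therefore not read as a result about the members. The median member differed by 0.02, 0.02, 0.02 and 0.01 in these comparisons, so typical members lay within a small fraction of the fold minimum. A share of 0 among 71 members is close to these backgrounds and is not read as a property of the members.

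By adjusted p alone, in limma, 4 members were higher and 2 lower in the parthenogenetic mean than in ESC11, where 19.7% of all rows passed in either direction. The members were SDHD, UQCRFS1, COX7A2L and SDHA on the higher side and NDUFA7 and NDUFS6 on the lower side. SDHD alone passed for ESC3 against ESC11, where 23.0% of rows did. For ESC7, 7 members were higher and 4 lower than in ESC11, against 30.9% of rows, and 4 higher and 6 lower than in ESC3, against 39.9% of rows. Their sizes ran from 0.09 for SDHA between ESC7 and ESC3 to 0.73 for NDUFC2 in the same comparison, all under the fold minimum. UQCRFS1 differed by 0.19 ± 0.03 (SE) and SDHD by 0.16 ± 0.03 (SE) between ESC7 and ESC11.

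The members with the largest differences between lines belonged to complex I. NDUFC2 held 2.64, 2.63 and 3.20 FPKM in the ESC3 libraries, 1.12, 1.85 and 1.00 in those of ESC7, and 2.41, 2.11 and 2.86 in those of ESC11. ESC7 was the low line, with a difference of -0.73 ± 0.18 from ESC3 and of -0.59 ± 0.18 from ESC11 (SE; adjusted p = 0.0080 and 0.030). NDUFB9 held 93.9, 82.5 and 86.5 FPKM in the ESC3 libraries, 149, 132 and 114 in those of ESC7, and 102, 110 and 95.7 in those of ESC11. It was highest in ESC7, by 0.57 ± 0.09 against ESC3 (SE; adjusted p = 0.00084) and by 0.35 ± 0.09 against ESC11 (SE; adjusted p = 0.019).

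NDUFA7, an accessory subunit of the matrix arm, was lowest in ESC7, with 142, 125 and 113 FPKM against 175, 188 and 174 in ESC3 and 173, 199 and 168 in ESC11. The differences were -0.50 ± 0.09 against ESC3 and -0.51 ± 0.09 against ESC11 (SE; adjusted p = 0.0015 and 0.0021). UQCRH of complex III had 346, 374 and 359 FPKM in ESC3 and 520, 473 and 390 in ESC7, which was 0.35 ± 0.10 higher (SE; adjusted p = 0.019). COX7A2L was 0.31 ± 0.07 higher in ESC7 than in ESC11 (SE; adjusted p = 0.0065), and NDUFS6 differed by -0.26 ± 0.07 (SE; adjusted p = 0.016). NDUFB8, an accessory subunit of the membrane arm, differed by -0.27 ± 0.08 between ESC7 and ESC3 (SE; adjusted p = 0.021). All of these lay under the fold minimum, and in each the libraries of the lines compared did not overlap. Among the members that did not pass, ATP5J differed by 0.28 ± 0.11 between the parthenogenetic mean and ESC11 and by 0.27 ± 0.12 between ESC3 and ESC11, and NDUFS4 by -0.24 ± 0.26 between ESC3 and ESC11 (SE).

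The largest difference of any member between lines was that of NDUFA6, and it depended on the row. On the kept row, ESC11 had 22.3, 8.75 and 20.3 FPKM, while ESC3 held 10.4, 8.07 and 12.3, and ESC7 8.44, 6.73 and 10.1. The difference between ESC7 and ESC11 was -0.86 ± 0.35 (SE; adjusted p = 0.094), and that between the parthenogenetic mean and ESC11 was -0.73 ± 0.31 (SE; adjusted p = 0.13). Without the second ESC11 library these became -1.26 and -1.13, and both were called. On the row that the reference table pairs with NDUFA6, the direction was the opposite, with 6.38, 6.02 and 5.69 FPKM for ESC3, 5.23, 4.96 and 5.28 for ESC7, and 1.29, 1.79 and 1.39 for ESC11. There the parthenogenetic mean was 1.41 ± 0.07 higher than ESC11 (SE; adjusted p = 3.0e-07), so no direction between lines can be given for NDUFA6 from this table.

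**Figure D4:**
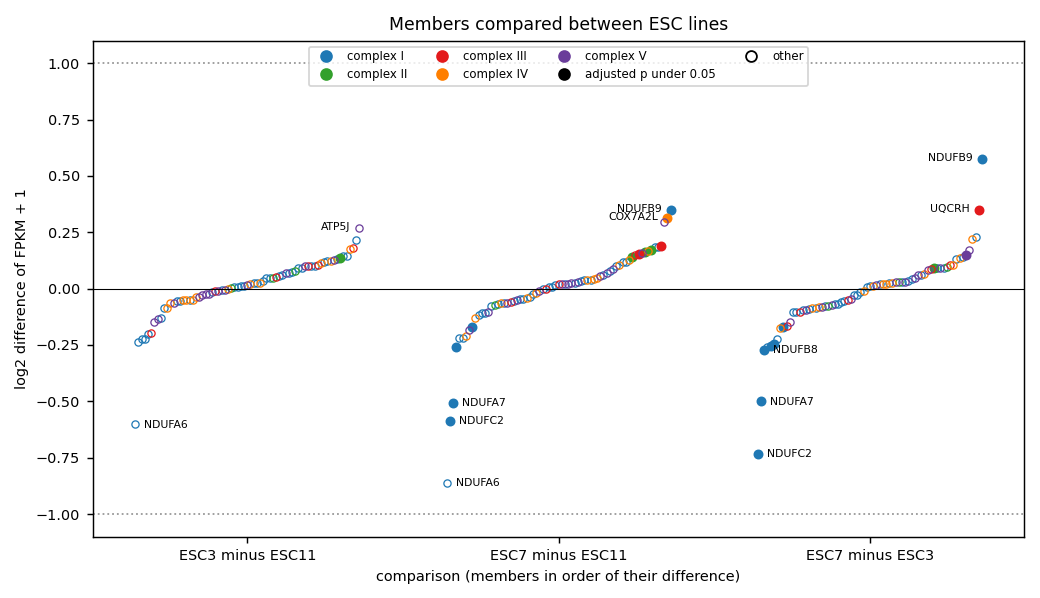
Log2 difference of FPKM + 1 of each tested member between ESC lines, in order of size within each comparison; filled points have a limma adjusted p under 0.05 and dotted lines mark the fold minimum of 1. All points lie between the dotted lines, and most lie close to 0.

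The members are spread over the genome, on 18 chromosomes and 4 unplaced scaffolds, with 13 on chromosome 2 and 9 on chromosome 6. NDUFA1, NDUFB11 and COX7B are on the X chromosome. NDUFA1 had 54.5 ± 2.72 FPKM in ESC3, 64.6 ± 10.3 in ESC7 and 63.8 ± 4.61 in ESC11 (SD, n = 3 each), and its differences between lines did not pass. NDUFB11 had 40.3 ± 2.06, 37.5 ± 2.59 and 37.5 ± 1.30 FPKM, and COX7B 307 ± 20.7, 314 ± 41.1 and 307 ± 61.5 FPKM (SD, n = 3 each). For both the libraries of the lines overlapped. For NDUFB11 the overlap of ESC3 and ESC11 was slight, with the lowest ESC3 library at 38.42 FPKM and the highest ESC11 library at 38.45 FPKM.

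Over the 4 group means, NDUFB7, NDUFV1, UQCR10, NDUFS7 and COX7B followed the mean profile of the tested members most closely, with a Pearson r from 0.9995 to 1.0. The lowest r were those of NDUFB9 at 0.57, COX7A2L at -0.82 and ATP5S at -0.99. With 4 points, 3 of them close together, these r mostly restate the difference between fibroblasts and ESCs.

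Other genes of the chain and of mitochondria were counted against the same background, in which 28.1% of all rows were called higher and, after centring, 20.6%. Of 13 tested assembly factors of complex I, 7 rose and 0 fell, but after centring 3 were called, a share near that background. The largest differences were those of NDUFAF2 at 1.67 ± 0.13, NDUFAF4 at 1.38 ± 0.05 and FOXRED1 at 1.27 ± 0.06 (SE). Of 16 of complex IV, 8 rose and 6 were called higher after centring, among the 8 LRPPRC, which stabilises mitochondrial mRNAs, at 1.64 ± 0.03, COA7 at 1.63 ± 0.07 and the haem A enzyme COX10 at 1.37 ± 0.10 (SE). COA5 of the same list fell, by -1.06 ± 0.29 (SE; adjusted p = 0.0053), with 582 to 1089 FPKM in fibroblasts and 266 to 690 FPKM in ESCs. Of 6 assembly factors of complex III, UQCC1 rose, by 1.13 ± 0.21 (SE), 0 were called after centring, and TTC19 had a difference of -0.67 ± 0.08 (SE). The 2 tested factors of complex II and the 3 of complex V had 0 calls by limma, although all 5 were higher at an adjusted p under 0.05.

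Chain components outside the naming rule were also mostly higher in the ESCs. Of 9 tested, 7 rose and 0 fell, and 6 were called higher after centring. CYC1, cytochrome c1 of complex III, went from 40.0 to 40.5 FPKM in the fibroblasts to 158 to 191 FPKM in the ESCs and rose by 2.1 ± 0.03 (SE). CYCS, cytochrome c itself, rose by 1.56 ± 0.03 (SE). USMG5, a small ATP synthase subunit, rose by 2.56 ± 0.65 (SE), with fibroblast libraries from 18.4 to 221 FPKM, so its value is uncertain. COX4I1, the main form of complex IV subunit 4, had a difference of 0.91 ± 0.04 (SE), under the fold minimum.

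Of 13 citric acid cycle genes, 6 rose and 0 fell, but after centring 3 were called, a share near the background of 20.6%. Those that rose included MDH2 (malate dehydrogenase) at 1.81 ± 0.03 and DLD, the shared E3 enzyme, at 1.28 ± 0.05 (SE). CS, citrate synthase, had a difference of 0.48 ± 0.03 (SE), close to the Ensembl median. Of 11 genes of pyruvate entry, 6 were called higher and 0 lower, and 4 were called higher after centring. Among them were PDHA1 and DLAT of the pyruvate dehydrogenase complex at 1.63 ± 0.03 and 1.50 ± 0.02 (SE). PDK4, a kinase that switches that complex off, was listed at 0 to 0.0186 FPKM in the fibroblasts and at 0.81 to 5.28 FPKM in the ESCs. It was tested through ESC libraries alone, so its call is not read as support, and without it 5 of 10 genes were called higher. The count after centring is not given without PDK4, so that count is not read as support either.

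Of 12 tested regulators and mitochondrial DNA factors, 6 were called higher and 0 lower, and 5 were called higher after centring. PPARGC1B, a coactivator of mitochondrial gene expression, went from 0.334 to 0.737 FPKM in the fibroblasts to 9.13 to 13.5 FPKM in the ESCs. It too was tested through ESC libraries alone, and without it 5 of 11 genes were called higher. The count after centring is not given without PPARGC1B, so it is not read as support. C10ORF2, the mitochondrial DNA helicase, rose by 2.17 ± 0.04 (SE) and TFAM, which packages mitochondrial DNA, by 2.12 ± 0.33 (SE). Of 19 carriers and mass markers, 13 rose and 0 fell, and after centring 10 were called higher and 1 lower. The largest differences were those of UCP2, SLC25A6 and SLC25A5 at 3.40 ± 0.11, 2.29 ± 0.06 and 2.05 ± 0.03 (SE), the last 2 being exchangers of ADP and ATP. The outer membrane channel VDAC1 had a difference of 0.11 ± 0.03 (SE) and the fusion protein MFN2 of -0.82 ± 0.04 (SE).

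The medians of these lists ranged from 0.71 for complex III assembly factors to 1.30 for the chain components outside the naming rule, beside 1.17 for the 71 members. Between ESC lines PDK4 was the single gene of these lists called, 1.41 ± 0.11 higher in ESC7 than in ESC3 (SE; adjusted p = 6.8e-06). Of 5 stress and RNA quality genes in the table, the summed FPKM was 118 to 128 in the fibroblasts and 318 to 424 in the ESCs, mostly from FOS and EGR1, which rose, while JUN and DDIT3 fell. Its part in the members' values was not tested.

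**Figure D5:**
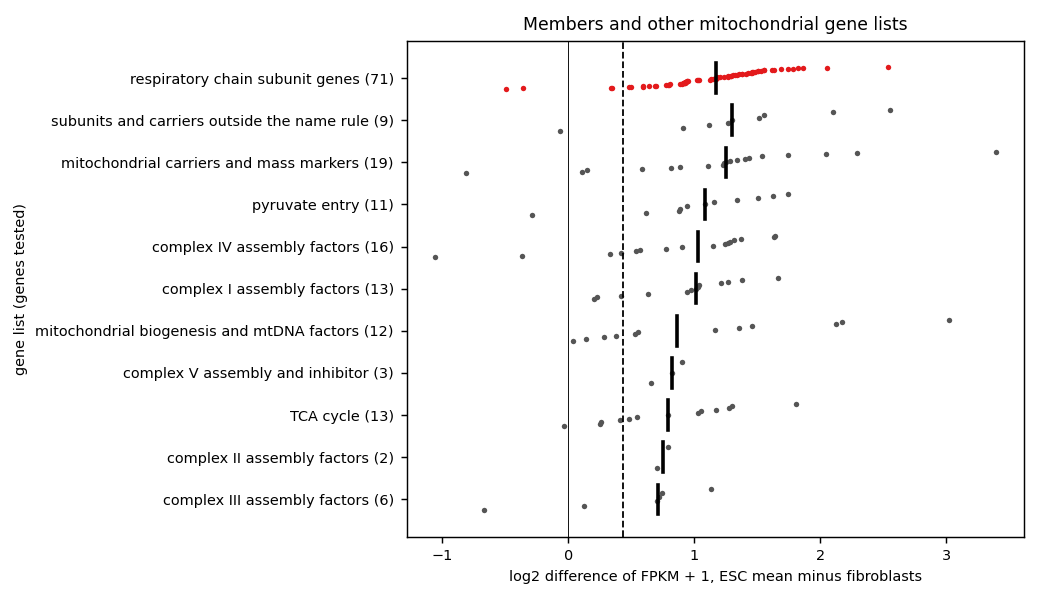
Log2 difference of FPKM + 1 between the mean of the 3 ESC lines and fibroblasts for the 71 members (top) and for other mitochondrial gene lists; each point is a gene, black bars are list medians and the dashed line is the median of tested Ensembl rows (0.43). All list medians lie to the right of the dashed line, from 0.71 to 1.30.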

How the data were processed

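The authors deposited 1 table of FPKM values, with 30012 rows and 12 libraries. Cufflinks 2.1.1, STAR 2.4.0b and the build Sscrofa10.2 are listed, without roles, in the submitters' processing notes. Per the labels, TruSeq libraries of polyA RNA were sequenced from both ends with 100 bp reads. Strand setting, handling of multiply mapped reads and depth are not given in the sources used here.

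The fit used log2(FPKM + 1), unscaled. The 18278 rows that reached 1 FPKM in 3 or more libraries were fitted as 4 group means in limma 3.58.1 (R 4.3.3) with a variance trend, two-sided, with Benjamini-Hochberg adjustment over all tested rows. The fit was tested on simulated data. No pair of libraries shared the same value in more than 0.0109% of rows. Errors are SDs between libraries or limma standard errors. Of the 92 member rows, 39 had a symbol in the reference name table, which was not always the same one, as for ATP5I, listed there as ATP5ME. A further 5 unannotated rows with member names were not used. Named members were, in each complex, those of highest and lowest level and of largest and smallest difference, isoform groups, members below the filter and the largest differences between lines. A few others were named after their values were seen, and some named by the rule are not reported here. Listed genes followed counts and the largest called differences. The members, lists and rules were chosen with earlier results of these data known. Alternative scalings, filters, pseudocounts, row choices, a replicate block and left-out libraries were run, and their effect is given at the end. Tables and plots used Python 3.11.15, pandas 2.3.3, numpy 2.4.6 and matplotlib 3.10.9.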

Additional observations from a re-analysis of the deposited data

How the results depend on the processing

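Direction held for nearly all members, while the number called moved with the scaling and the fold minimum. Scaling by median ratios left 20 members called higher for the ESC mean and 19, 17 and 18 for ESC3, ESC7 and ESC11 against fibroblasts. Quantile normalization and centring left 28 and 29 for ESC7, where 3670 and 3790 of the 18278 tested rows were called higher. With adjusted p alone the counts were 69 higher and 2 lower for the ESC mean, 68 and 2 for ESC3, and 69 and 2 for both ESC7 and ESC11. The same rule gave 4 higher and 2 lower for the parthenogenetic mean against ESC11, 1 higher for ESC3 against ESC11, 7 and 4 for ESC7 against ESC11, and 4 and 6 for ESC7 against ESC3. Scaling to the same summed FPKM, which ran from 2375984 to 7715469 between libraries, gave 15 members for ESC3 and 69 for ESC11 against fibroblasts. Of the 18278 tested rows 3261 and 9961 were called higher in these comparisons. The same scaling gave 68, 68 and 41 members lower for the parthenogenetic mean, ESC3 and ESC7 against ESC11. There 9937, 12413 and 5998 of all tested rows were called lower, with the Ensembl median itself at -1.07 in the parthenogenetic comparison. With robust variances and library weights 1 member was called lower in ESC7 than in ESC11, where 155 of the 18278 tested rows were.

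On the rows paired in the reference table, an alternative chosen after seeing the data, NDUFA6 reversed to 1.41, 1.50 and 1.31 for the parthenogenetic mean, ESC3 and ESC7 against ESC11, which made 1 member called in each. Leaving out each library in turn gave 42 to 44 members for the ESC mean, 41 to 44, 40 to 46 and 42 to 46 for ESC3, ESC7 and ESC11 against fibroblasts, and 0 lower. Between lines it gave 0 to 1 lower against ESC11 for the parthenogenetic mean, ESC3 and ESC7, the 1 being NDUFA6 without the second ESC11 library, and 0 otherwise.

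The complex medians relative to the Ensembl median, in the order I to V, were 0.63, 0.97, 1.27, 0.96 and 0.88 with a pseudocount of 5 and 0.77, 1.13, 1.42, 1.08 and 1.03 with no filter. Quantile normalization gave 0.57 for complex I and 0.93 for complex II. Complex II was 0.84 with a pseudocount of 0.1 and 0.82 after scaling by median ratios, and complex IV was 0.93 with structural subunits alone, a choice made after seeing the data. Leaving out each library gave 0.45 to 0.53, 0.81 to 0.88, 1.1 to 1.19, 0.77 to 0.85 and 0.72 to 0.84. The cause of these movements was not tested. In the ESC mean comparison 25 members lost their call under at least 1 alternative and 1 gained it.

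The replicate numbers of the labels did not pair the libraries: over 18 same-numbered pairs the correlation of deviations ran from -0.09 to 0.09, and 2 of 12 libraries correlated best with their own number. With the replicate number as a block the counts were 44, 44, 44 and 43 for the ESC mean, ESC3, ESC7 and ESC11 against fibroblasts, with 0 lower and 0 called between lines. Depth is unknown, so low members such as NDUFC2 and ATP5S carry an unknown counting error.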
